A study of Bos taurus with 18 samples.

Results

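The genes of fatty acid synthesis and desaturation were picked by symbol from a table of RNA read counts of MAC-T cells, bovine mammary epithelial cells that have been immortalised and are grown as a line. The 9 genes, of 30642 in the table, were the acetyl-CoA producing enzymes ACLY and ACSS2, the carboxylase ACACA, the fatty acid synthase FASN, the stearoyl-CoA desaturase SCD, the elongases ELOVL6 and ELOVL5, and the desaturases FADS1 and FADS2. All 9 passed the filter on low counts, which left 15158 genes for testing. The study set lactogenic against basal medium, a short heat exposure, and recovery from heat, in 6 groups of 3 libraries. NHSUD (basal medium, undifferentiated) and NHSD (lactogenic medium, differentiated) stayed at 37 °C. HSUD (basal) and HSD (lactogenic) were held at 42 °C for 1 h before collection. D2R and D6R received lactogenic medium and the same heat, and were then kept at 37 °C for a further 2 h or 6 h. All cells were cultured for 4 days in a medium that contained insulin (5 µg/ml) and hydrocortisone (1 µg/ml). The basal medium held 10% fetal bovine serum (FBS). The lactogenic medium added prolactin (5 µg/ml) and dexamethasone (10 µg/ml), and the labels also name 5% FBS for it, so the hormones and the serum cannot be told apart. Unheated, heated and recovery groups each had a plate of their own, so heat or recovery and plate cannot be told apart either. The whole experiment was done 3 times, per the labels, and the replicate numbers 1 to 3 are called runs here (how the numbers were checked is in the processing account). A library pooled the RNA of 2 technical replicates. All groups come from 1 cell line.

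Fatty acids are built in the cytosol from acetyl-CoA. ACLY makes acetyl-CoA from citrate and ACSS2 makes it from acetate, ACACA converts it to malonyl-CoA, and FASN joins these units into saturated chains, mainly palmitate. ELOVL6 lengthens palmitate, SCD places the first double bond, and FADS1, FADS2 and ELOVL5 act on polyunsaturated chains. Ruminant mammary cells draw much of their carbon for milk fat from acetate taken up from blood, and in lactating tissue these genes are expressed strongly. The SREBP transcription factors, held back by INSIG1 when sterols are plentiful, are established activators of both this pathway and cholesterol synthesis.

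Library totals were 40.9 to 61.2 M counts. Values are given as CPM, the share of a gene in the library total after scaling of the totals (TMM), and levels of different genes are not compared because gene lengths were not used. The heat label was met by HSPA1A, a chaperone gene, at 403 ± 47.6 CPM in NHSUD and 427 ± 59.0 CPM in NHSD against 8293 ± 1832 CPM in HSUD and 7281 ± 2335 CPM in HSD (mean ± SD, n = 3 here and for every group value below). DNAJB1, a co-chaperone gene, stood at 110.2 ± 6.38 CPM in NHSUD and 1686 ± 374 CPM in HSUD. All 10 epithelial markers had reads, and their summed level was 15873 to 29472 CPM. The 5 milk protein genes listed as secretory markers summed to 0 to 0.0992 CPM in every library, lactogenic medium included, and LALBA had no read. Of the other cell types, 6 adipocyte markers summed to 4.42 to 10.1 CPM, 3 endothelial markers to 0.794 to 4.26 CPM and 8 fibroblast markers to 431 to 824 CPM (DCN made up nearly all of it).

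The depth behind the 9 genes was unequal. Of the 9, ACSS2, ACLY, ACACA, FASN, SCD, ELOVL6 and ELOVL5 had at least 2272 reads in every library, whereas FADS1 had 78 to 223 reads and FADS2 had 3 to 43 reads, 314 in all. Counting error is therefore small beside the spread between libraries for the first 7 genes and is not small for FADS2.

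**Figure D1:**
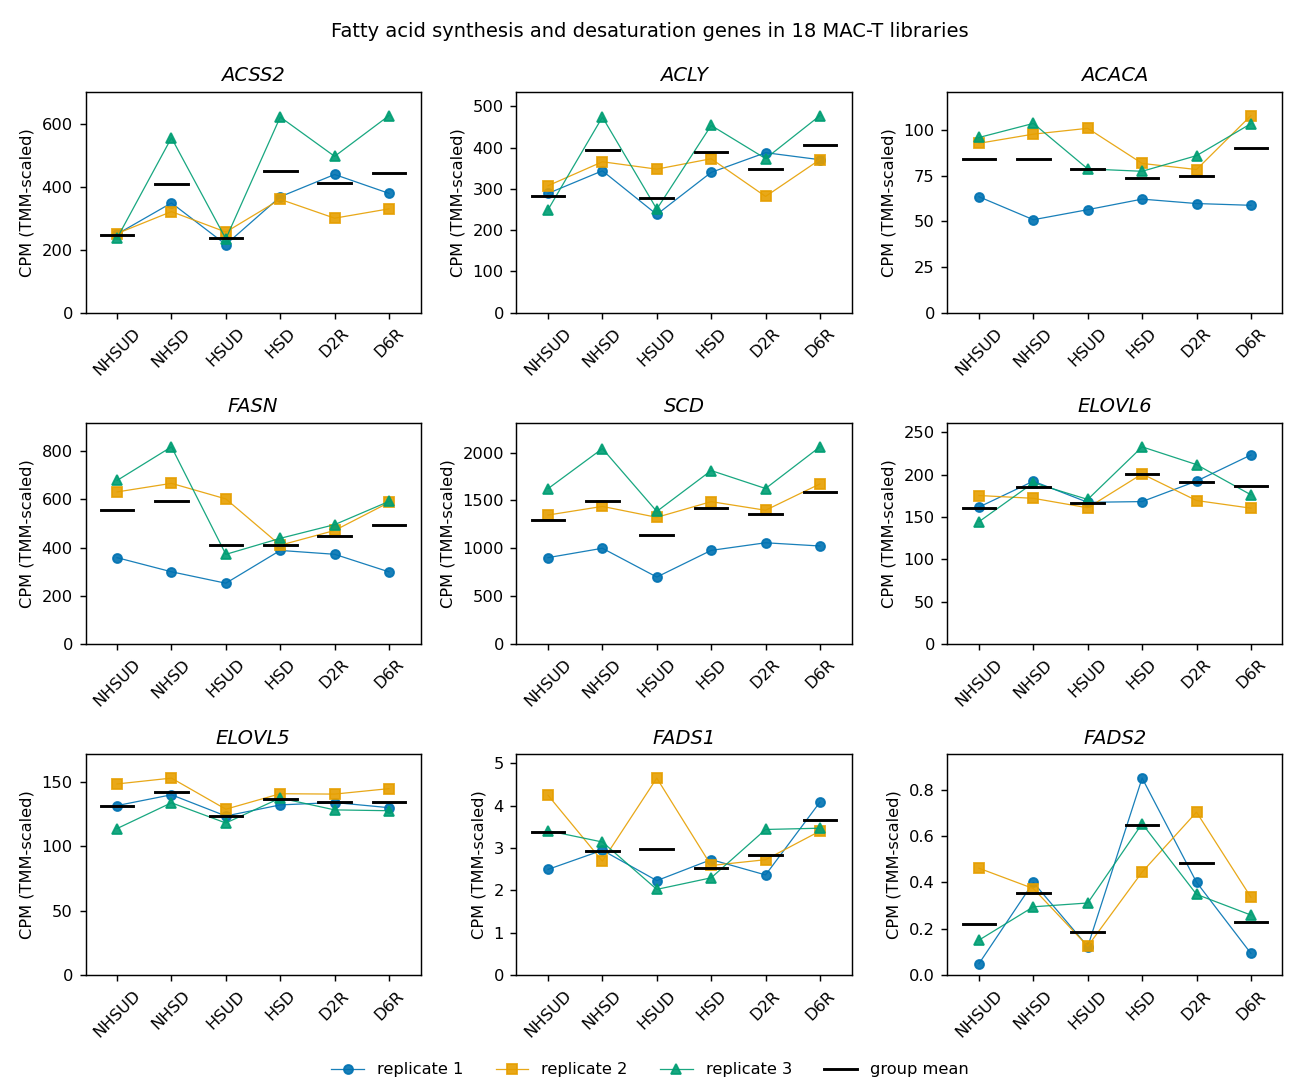
Level of each of the 9 genes in CPM (linear axis) in every library, by group, with the replicate number given by colour. ACSS2 lies at 216.7 to 256.4 CPM in the 6 basal libraries and at 300.4 to 626.0 CPM in the 12 lactogenic ones, while FASN, ACACA and SCD are lowest in replicate 1 of every group.

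The first comparison asked which of these genes differed between lactogenic and basal medium, averaged over unheated and heated cells. ACSS2, the enzyme that activates acetate, was higher in lactogenic medium, by 1.71 times (95% interval 1.41 to 2.07) in the fit that pairs libraries by replicate number. ACLY had a positive estimate with an interval of 1.17 to 1.64 times and did not pass the test. FASN and ACACA, which use the acetyl-CoA, had estimates near 0. No member was called in the fit without a replicate block, in which no gene of the 15158 was called either (0%). With the replicate number as a block, 1 of the 9 members was called, ACSS2, against 0.805% of all genes tested. Calls required a Benjamini-Hochberg adjusted p under 0.05 over all genes tested, from edgeR's quasi-likelihood test.

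In basal medium ACSS2 stood at 249.7, 251.6 and 236.7 CPM in NHSUD replicates 1 to 3 and at 216.7, 256.4 and 234.7 CPM in HSUD. In lactogenic medium it stood at 348.8, 321.3 and 555.6 CPM in NHSD and at 368.4, 360.3 and 621.5 CPM in HSD. The groups did not overlap, and replicate 3 was the highest library in both lactogenic groups. The recovery groups, also in lactogenic medium, held 439.1, 300.4 and 496.7 CPM (D2R) and 379.2, 330.1 and 626.0 CPM (D6R). All 12 lactogenic libraries were thus above all 6 basal ones, with medians of 373.8 and 243.2 CPM. ACSS2 was the only member with that separation, which 0.119% of all genes tested showed in the same direction (a comparison chosen after the values were seen).

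The log2 difference of ACSS2 between media was 0.83 ± 0.19 (SE) without a block, with an adjusted p of 0.239 (edgeR). With the block it was 0.77 ± 0.13, with an adjusted p of 0.0117 (edgeR). Its sign was the same in all runs, at 0.62, 0.42 and 1.32 for runs 1, 2 and 3. With the block, the adjusted p was 0.0119 without replicate 2 (edgeR). The call was lost without replicate 1 (0.84 on the log2 scale, adjusted p 0.175) and without replicate 3 (0.52, adjusted p 0.148, edgeR). Over all genes, the fits without replicates 1, 2 and 3 called 47, 49 and 4, against 122 with all runs. DESeq2, run without a block, called ACSS2 as well (adjusted p 0.0154). Taken apart, the difference was 0.73 ± 0.27 in unheated cells and 0.93 ± 0.27 in heated cells, neither passing the test. With the block, 0.00660% of all genes were called between media in unheated cells and 0.0198% in heated cells, no member among them (0% in both without the block).

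ACLY, which supplies acetyl-CoA from citrate, lay in the same direction. It stood at 288.9, 307.5 and 249.3 CPM in NHSUD and at 343.7, 365.5 and 473.7 CPM in NHSD, with no overlap. In heated cells it stood at 238.0, 347.7 and 250.9 CPM in HSUD and at 339.9, 372.9 and 453.5 CPM in HSD, where the groups overlapped through HSUD replicate 2. The log2 difference averaged over heat was 0.48 ± 0.13 without and 0.47 ± 0.11 with the block, with adjusted p-values of 0.438 and 0.0726 (edgeR). The sign was the same in all runs (0.38, 0.18 and 0.89), again with the highest value in run 3. ACLY passed the test only in the block without replicate 2 (0.64, adjusted p 0.0371, edgeR).

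FASN, the enzyme that assembles the chain, had an estimate near 0 and was not called. Its levels were 358.3, 631.1 and 678.6 CPM in NHSUD and 299.8, 666.7 and 818.0 CPM in NHSD. In heated cells they were 252.3, 602.1 and 372.1 CPM in HSUD and 388.3, 410.0 and 438.5 CPM in HSD. The groups overlapped in both pairs, and the runs took different signs (0.18, -0.24 and 0.25). The difference averaged over heat was 0.05 ± 0.25 without and 0.08 ± 0.15 with the block, and the 95% interval of the latter was 0.842 to 1.33 times. ACACA, which makes the malonyl-CoA that FASN uses, had an interval of 0.857 to 1.09 times in the same fit.

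The difference between ACSS2 and FASN was tested itself, as the log2 ratio of their CPM in each of the 12 unheated or heated libraries. The ratio was higher in lactogenic than in basal medium by 0.72 on the log2 scale, and by 0.44, 0.66 and 1.06 in runs 1, 2 and 3. An exact permutation test within runs (216 permutations, two-sided) gave p = 0.00926, the smallest they can give. The pair was chosen out of 36 pairs of members after its values were seen. The p-value is not corrected for that choice, so it cannot stand as independent support for the difference.

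Among the desaturases and elongases no member was called in any medium comparison. SCD, the enzyme that makes oleate from stearate, had a log2 difference of 0.27 ± 0.07 with the block (adjusted p 0.107, edgeR) and was higher in lactogenic medium in all runs (0.32, 0.13 and 0.36). ELOVL6 had 0.23 ± 0.09 and ELOVL5 had 0.13 ± 0.06 in the same fit, with group means of 160.4 ± 15.5 CPM in NHSUD and 184.7 ± 11.2 CPM in NHSD for the former and 131.1 ± 17.3 and 142.0 ± 9.75 CPM for the latter. In heated cells the ELOVL5 groups did not overlap. In all, 6 of the 9 members (ACSS2, ACLY, SCD, ELOVL6, ELOVL5 and FADS2) lay higher in lactogenic medium in every run, and none lay lower in every run. Of all genes tested, 17.9% lay higher and 19.9% lower in every run. FADS2 passed the filter on low counts only through its lactogenic libraries, so its place among the 6 is no support.

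FADS1 and FADS2, the front-end desaturases of polyunsaturated fatty acids, were the members with the fewest reads. FADS1 stood at 3.38 ± 0.87 CPM in NHSUD and 2.93 ± 0.23 CPM in NHSD, and its difference averaged over heat was -0.22 ± 0.20. FADS2 stood at 0.22 ± 0.21 CPM in NHSUD, 0.36 ± 0.05 CPM in NHSD, 0.19 ± 0.11 CPM in HSUD and 0.65 ± 0.20 CPM in HSD. In heated cells the FADS2 libraries did not overlap, with 0.124, 0.125 and 0.312 CPM in HSUD and 0.850, 0.445 and 0.654 CPM in HSD. Its difference averaged over heat was 1.26 ± 0.47 without the block and was not called with it (adjusted p 0.23, edgeR). In unheated cells 2 members (ACSS2 and ACLY) and in heated cells 3 members (ACSS2, ELOVL5 and FADS2) lay higher without overlap, where 3.44% and 3.31% of all genes did. FADS2 had 3, 20 and 8 reads in NHSUD and 5, 6 and 12 in HSUD. The filter needed about 10 reads in 3 libraries, which FADS2 reached only through its lactogenic libraries. Its higher level in lactogenic medium is therefore no support.

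**Figure D2:**
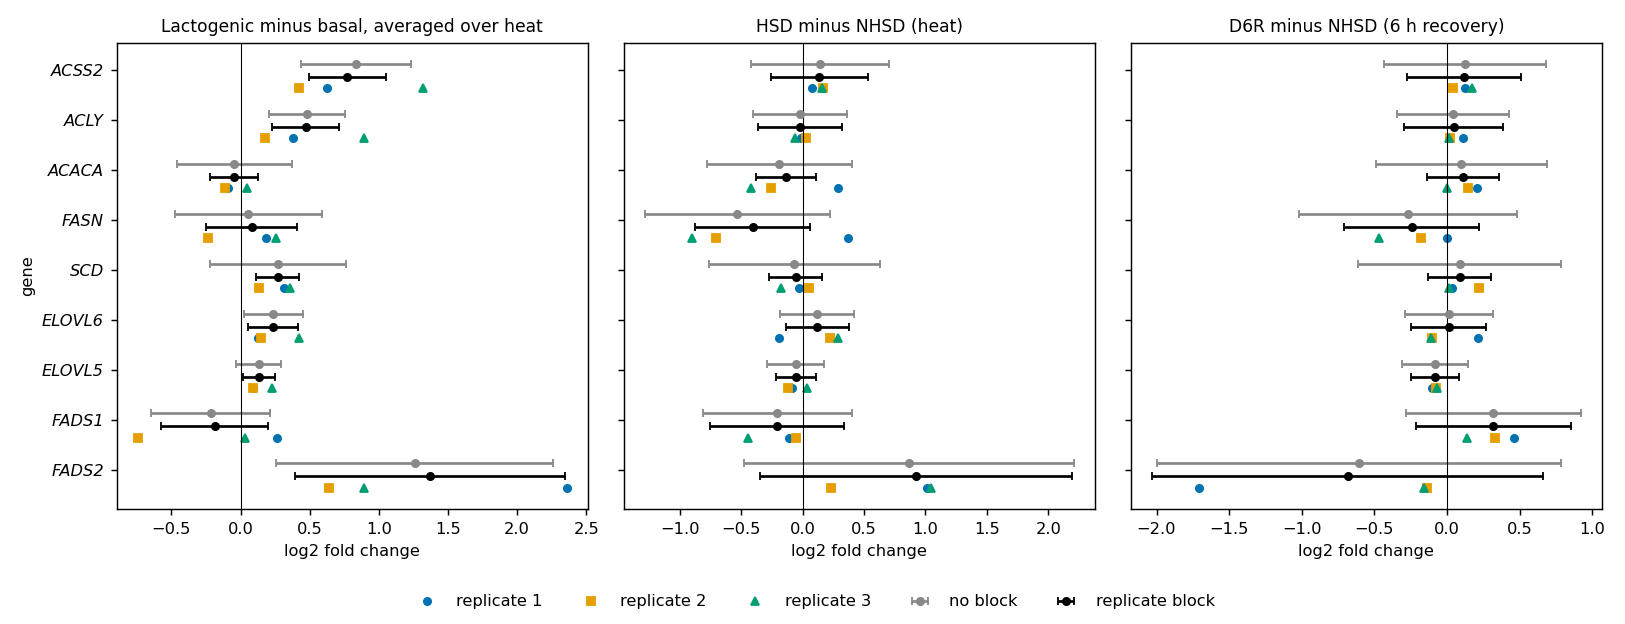
Log2 differences of the 9 genes for lactogenic minus basal medium (left), HSD minus NHSD (middle) and D6R minus NHSD (right), without (grey) and with (black) the replicate block, with 95% intervals as bars and the difference in each run as coloured points. In the medium panel the ACSS2 interval with the block runs from 0.49 to 1.05, and in the heat and recovery panels every interval with the block includes 0.

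The second comparison asked whether 1 h at 42 °C changed these genes. No member was called in either medium, with or without the block. Of all genes tested, 0.125% were called in basal and 0.0990% in lactogenic medium without the block, and 0.633% and 0.554% with it. ACSS2 and ACLY, the acetyl-CoA producing enzymes, had heat estimates of -0.06 ± 0.27 and -0.02 ± 0.18 in basal medium and of 0.14 ± 0.26 and -0.02 ± 0.18 in lactogenic medium. With the block, the 95% interval of ACSS2 for heat was -0.46 to 0.33 in basal and -0.26 to 0.53 in lactogenic medium, on the log2 scale.

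FASN had the lowest heat estimate of the members in both media. In basal medium it was -0.44 ± 0.36 (with the block -0.45 ± 0.22, adjusted p 0.409, edgeR), with a negative sign in all runs (-0.51, -0.07 and -0.87). In lactogenic medium it was -0.53 ± 0.36 (with the block -0.41 ± 0.22, adjusted p 0.471, edgeR), but run 1 took the other sign (0.37, -0.70 and -0.90). Without replicate 1, the fit with the block gave -0.82 ± 0.18 and an adjusted p of 0.0367 (edgeR), so that this one run decided the call. In that fit 501 genes of the whole table were called, 429 of them lower after heat. SCD also lay lower after heat in every run in basal medium (-0.37, -0.03 and -0.23), with an estimate of -0.20 ± 0.10 in the fit with the block that did not pass the test (adjusted p 0.432, edgeR). FASN and SCD were the members with a negative sign in every run there, as 16.7% of all genes tested had.

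FADS2 was the only member whose unheated and heated libraries did not overlap in a heat comparison, at 0.400, 0.374 and 0.295 CPM in NHSD against 0.850, 0.445 and 0.654 CPM in HSD. The estimate was 0.86 ± 0.64 and was not called. Of all genes, 3.75% lay higher without overlap in that comparison. In basal medium 7.62% did not overlap in either direction, and no member was among them. Whether heat acted differently in the 2 media was tested as an interaction. It was called for no gene, members included, with or without the block or by DESeq2, and the estimates of ACSS2 (0.20 ± 0.38), FASN (-0.09 ± 0.50) and FADS2 (1.08 ± 0.95) had wide errors.

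The third comparison asked where the genes stood after heat. The recovery and heat comparisons in lactogenic medium share the NHSD libraries, so their values are given side by side only. No member was called after 2 h or 6 h of recovery against NHSD, after 2 h against HSD, or between 6 h and 2 h, with or without the block. Called genes made up 0.0792%, 0.0132%, 0.0528% and 0% of the table in these 4 comparisons without the block, and 0.224%, 1.45%, 0.389% and 0% with it. FASN means were 595 ± 266 CPM in NHSD, 412 ± 25.2 CPM in HSD, 446 ± 65.2 CPM in D2R and 493 ± 168 CPM in D6R. Against NHSD the FASN estimate was -0.41 ± 0.36 after 2 h and -0.27 ± 0.36 after 6 h. All 4 groups overlapped in FASN, NHSD having both the widest spread and the highest library.

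ACSS2 means were 409 ± 128 CPM in NHSD, 450 ± 149 CPM in HSD, 412 ± 101 CPM in D2R and 445 ± 159 CPM in D6R. After 6 h the estimate against NHSD was 0.12 ± 0.26 for ACSS2, 0.04 ± 0.18 for ACLY, 0.09 ± 0.33 for SCD and 0.10 ± 0.28 for ACACA. FADS1 was the one member without overlap in that comparison, at 3.40 to 4.08 CPM in D6R against 2.69 to 3.14 CPM in NHSD, with an estimate of 0.32 ± 0.29. Of all genes tested, 5.57% lay higher without overlap there. In that comparison 4 members lay higher and 3 lower in every run, where 20.3% and 20.4% of all genes did. FADS2 lay lower in D6R (0.094 to 0.336 CPM) than in D2R (0.349 to 0.703 CPM) without overlap, as 3.38% of genes did, with an estimate of -1.06 ± 0.65.

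For 3 of the genes the run, not the group, held most of the spread between libraries. The run accounted for 81.9% of the spread of SCD in log2 CPM, 80.5% of that of ACACA and 60.1% of that of FASN, against a median of 34.9% over all genes tested. ACSS2 and ACLY lay the other way, with 61.9% and 58.4% of the spread between groups and 20.5% and 6.04% between runs. FADS2 had 55.5% between groups, and the median over all genes tested was 27.6%. Over the 9 members the median share was 20.5% between runs and 34.3% between groups. A split into 6 groups takes up more of the spread by chance than a split into 3 runs. The run and group shares are therefore not directly comparable, and each is read against its median over all genes. FASN, ACACA and SCD were lowest in replicate 1 in all 6 groups, as were 5.96% of all genes tested. SCD was also highest in replicate 3 in all 6 groups, from 903 to 1623 CPM between runs 1 and 3 of NHSUD and from 1024 to 2060.4 CPM between those of D6R. ACACA ranged from 50.9 CPM (NHSD replicate 1) to 107.7 CPM (D6R replicate 2), with group means from 73.7 ± 10.2 CPM in HSD to 89.9 ± 27.1 CPM in D6R, and no neighbouring groups in that order differed beyond their spread.

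ACSS2 with ACLY and FASN with ACACA had like profiles across the 18 libraries. They are described, without a test, because the libraries share runs and groups. ACSS2 and ACLY had a Pearson r of 0.91 as measured and 0.94 after the mean of each run was removed. FASN and ACACA had 0.92 and 0.80. SCD followed FASN and ACACA as measured (0.80 and 0.84), but followed ACSS2 and ACLY once run means were removed (0.81 and 0.84). ACSS2 and FASN had 0.20 and 0.18. Of the 36 pairs of members, 32 had a positive r as measured and 29 after removal of the run means.

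**Figure D3:**
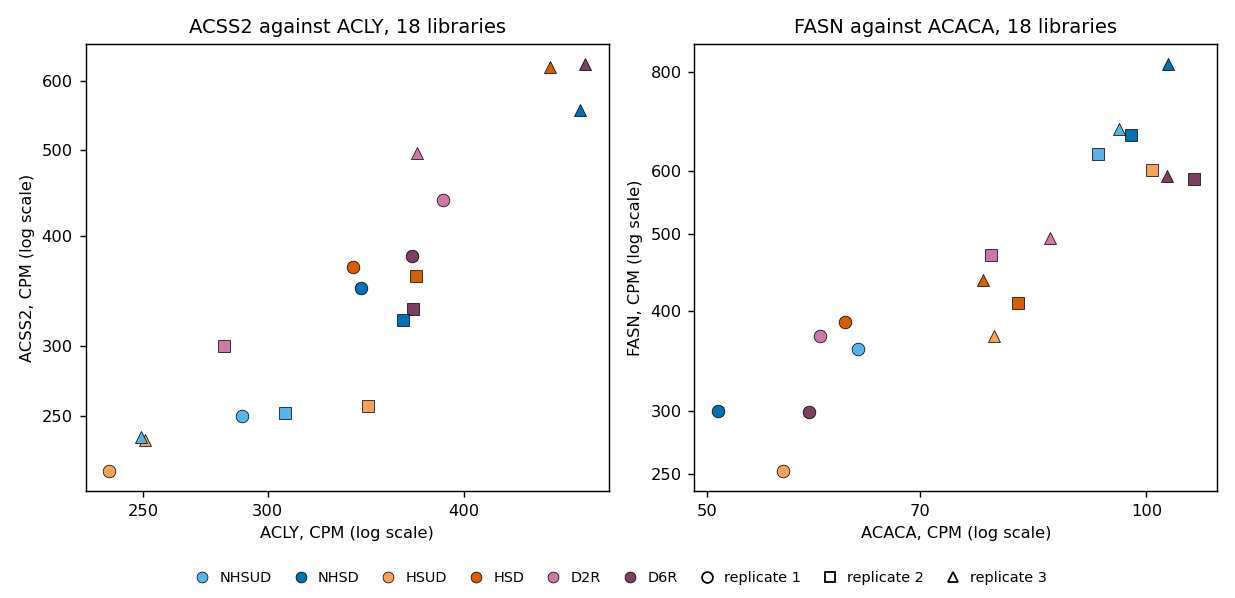
ACSS2 against ACLY (left) and FASN against ACACA (right) in CPM on log axes, 1 point a library. In the left panel the 6 basal libraries lie lowest, below 257 CPM of ACSS2. On the ACLY axis the media overlap: HSUD replicate 2 (347.7 CPM) and NHSUD replicates 1 and 2 (288.9 and 307.5 CPM) lie above D2R replicate 2 (281.6 CPM). In the right panel all 6 libraries of replicate 1 lie below 389 CPM of FASN and 64 CPM of ACACA.

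The genes most like the members' mean profile were ranked among 9756 named genes with at least 5 CPM. As measured, SLC20A1 (a phosphate transporter, r = 0.88), ANKRD50 (0.85) and DHCR7 (a late enzyme of cholesterol synthesis, 0.85) came first, with PHC3, PHF3, LATS1 and AREL1 also among the closest (0.83 to 0.85). With run means removed, TPCN1 (an endolysosomal channel, r = 0.92), LSS (lanosterol synthase, 0.91) and ANKRD50 (0.88) led, followed by C18H16orf70, DHCR7, PLAU, CPM (the carboxypeptidase gene) and LPIN1 (0.85 to 0.87). ANKRD50 and DHCR7 stood in both rankings.

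The neighbouring pathways were described from lists of known genes. In the medium comparison averaged over heat, 7 of the 9 members had a positive estimate with a median of 0.24, against a median of -0.01 over all genes tested. FADS2, which passed the filter only through its lactogenic libraries, was among the 7. All 20 sterol synthesis genes had a positive estimate, with a median of 0.50, and none was called without the block (as no gene was). With the block 17 of the 20 were called, against 0.805% of all genes tested. The sterol count was 3, 9 and 0 when replicates 1, 2 and 3 were left out. Those fits called 47, 49 and 4 genes of the whole table, so few calls were made there for any list. NSDHL, a late sterol enzyme, had 0.60 ± 0.10 (adjusted p 0.0075), IDI1, which isomerises isopentenyl diphosphate, 0.62 ± 0.10 (adjusted p 0.0086), FDFT1, the squalene synthase, 0.52 ± 0.09, FDPS, the farnesyl diphosphate synthase, 0.47 ± 0.08, and MSMO1, a methyl sterol oxidase, 0.67 ± 0.12 (edgeR with the block). These 5 and FABP3 had the smallest p-values of the called list genes.

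The lists closer to fatty acid synthesis held fewer calls than the sterol list. In this medium comparison the fit with the block called 0.805% of all genes tested. Of 18 other synthesis, elongation and desaturation enzymes 10 had a positive estimate (median 0.05), and none was called. Of 15 genes of carbon and NADPH supply 5 did (median -0.10), and the 1 called with the block, ACAT2, also stands in the sterol list. Of 19 genes of acyl activation and glycerolipid assembly 11 did (median 0.03), and 1 was called with the block. That gene was FABP3, a fatty acid carrier prominent in lactating mammary tissue, with means of 210.0 ± 12.7 CPM in NHSUD, 348 ± 110 CPM in NHSD, 254 ± 53.9 CPM in HSUD and 443 ± 156 CPM in HSD. Its difference with the block was 0.72 ± 0.09 (adjusted p 0.0009, edgeR), and it was called without replicate 1 (adjusted p 0.0139) and without replicate 2 (0.0077), but not without replicate 3 (0.0819). Of 19 oxidation genes 4 had a positive estimate (median -0.04), and none was called.

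Among 18 regulators of lipid synthesis none was called between media, and 7 had a positive estimate (median -0.04). INSIG1 and SREBF1, named here after their values were seen, took opposite signs. INSIG1, a sterol-sensing brake on SREBP processing, had 0.65 ± 0.14 with the block (adjusted p 0.0501, edgeR). SREBF1, which encodes SREBP-1, had -0.35 ± 0.17 (adjusted p 0.426, edgeR), with means of 197 ± 58.4 CPM in NHSUD and 145.9 ± 34.2 CPM in NHSD.

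**Figure D4:**
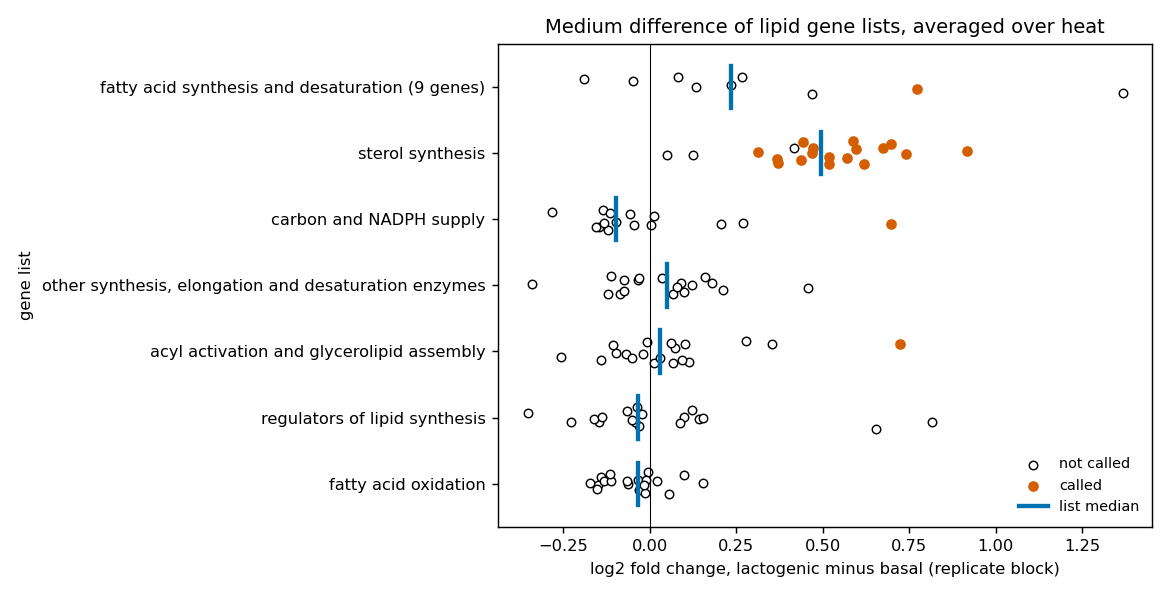
Log2 difference between lactogenic and basal medium, averaged over heat and fitted with the replicate block, for each tested gene of 7 lists, with called genes in orange and the median of each list as a blue bar. All 20 sterol synthesis genes lie above 0, and ACSS2 is the 1 called gene among the 9 fatty acid synthesis genes.

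After 6 h of recovery 4 list genes were called against NHSD, all with the block only. MBOAT7, a lysophospholipid acyltransferase, fell from 75.0 ± 12.4 CPM in NHSD to 50.9 ± 11.6 CPM in D6R (-0.57 ± 0.10, adjusted p 0.0102), and SCAP, the escort protein of SREBP, from 92.4 ± 12.9 to 67.0 ± 12.2 CPM (-0.47 ± 0.10, adjusted p 0.0236; edgeR). FADS3, a relative of FADS1 and FADS2, fell by 0.43 ± 0.10 on the log2 scale (adjusted p 0.0303), and ACSL3, an acyl-CoA synthetase, rose by 0.34 ± 0.08 (adjusted p 0.0407; edgeR). None of the 4 was called without replicate 2 or without replicate 3. Only MBOAT7 and SCAP were called without replicate 1 (adjusted p 0.0186 and 0.0331, edgeR). Over all genes, the fits without replicates 1, 2 and 3 called 330, 5 and 4, against 220 with all runs. MID1IP1, an activator of ACACA, rose from 91.8 ± 3.99 CPM in HSD to 122 ± 16.1 CPM in D2R with the block (0.41 ± 0.09, adjusted p 0.0439, edgeR), a call that was lost without replicate 2 and without replicate 3.

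Of the 10 epithelial markers, 2 also differed between media with the block, where 0.805% of all genes tested were called. KRT14, a basal keratin, was lower in lactogenic medium (-0.72 ± 0.12, adjusted p 0.0117), with 640 ± 298 CPM in NHSUD and 371 ± 87.8 CPM in NHSD, and CLDN4, a tight junction gene, was higher (0.42 ± 0.09, adjusted p 0.0208; edgeR). Neither was called without the block or by DESeq2. With the block, KRT14 was called without replicate 1 (adjusted p 0.0251) and without replicate 2 (0.0371), but not without replicate 3 (0.322; edgeR). CLDN4 lost its call without replicate 1, 2 or 3 (adjusted p 0.104, 0.0549 and 0.441; edgeR). The summed epithelial level was 20850 to 27083 CPM in NHSUD and 18473 to 22263 CPM in NHSD. The part of these markers in the ACSS2 difference was not tested, and in bulk RNA fewer cells of a type and less RNA per cell cannot be told apart.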

How the data were processed

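Gene counts of 18 MAC-T libraries were analysed as deposited; the labels give poly(A) RNA, and all columns matched a label (0 left over). Per the submitters' processing notes the authors named fastp 0.23.2, STAR 2.7.9a, featureCounts 2.0.3, DESeq2, limma and the assembly ARS-UCD 1.3; the sources used here do not give the annotation or the treatment of strand and multi-mapped reads. Of counts of 1 to 10, 74.2% were even, so both mates of a pair may have been counted and intervals from counting alone would be too narrow.

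The counts were filtered (edgeR 4.0.16, R 4.3.3, filterByExpr, minimum count of 10), scaled by TMM and modelled over the 18 libraries together, each group having its own mean. The 10 contrasts were tested two-sided with edgeR's quasi-likelihood test (robust), Benjamini-Hochberg over 15158 genes, after a check on simulated counts. The common coefficient of variation between libraries (edgeR dispersion) was 0.245, and 0.14 with a replicate block. A test of a single gene in 3 libraries against 3 cannot go below p = 0.1 by exact permutation.

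Per the labels, the experiment was done 3 times. Libraries with the same replicate number deviated together from their group means in each of 45 pairs (r of 0.135 to 0.596). These values were taken to mean that the numbers pair the libraries. The median of -0.20 in 90 pairs of other number and group follows largely from the subtraction of group means, so it is no separate evidence. The labels do not say that the runs used separate cell stocks. Without the block, p-values rest on the spread between libraries of the same group, which come from different runs. With the block, they rest on the spread left once the differences between runs are removed. Values with a replicate block are given where they change a call.

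The 9 members and the gene lists were chosen with earlier results of these data known. Named genes were the members, up to 6 called list genes a comparison by smallest p, and the 8 genes most correlated with the members' mean; others are marked. An immune marker list and 1 of the correlated genes are not reported here. All 9 symbols were found in RefSeq's gene table of ARS-UCD2.0, a build other than the authors', so no coordinates or sequences are given. Alternatives were the block, DESeq2 1.42.0, other scaling and filters, the compared groups alone, and leaving out each library or run.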

Additional observations from a re-analysis of the deposited data

How the results depend on the processing

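Without a block, none of the 90 pairs of a member and a comparison was called, and 87 of the 90 were called under no alternative. The number of members called between media, averaged over heat, was 0 as reported, 1 with the replicate block and 1 with DESeq2. It was 0 to 2 when a library or run was left out, with 2 in the replicate block without replicate 2. That fit called 49 of 15154 genes in all. For heat in lactogenic medium the number of members called was 0 as reported and 0 to 1 (1 in the replicate block without replicate 1). There 501 of 15300 genes were called in all. The block changed no other member's call. Of 1527 member values under an alternative, 172 took the other sign, 3 of them where the reported estimate exceeded its standard error. These were FADS1 between media (-0.22 as reported, -0.32 to 0.024 when a library was left out, the latter without HSUD replicate 2, and 0.15 in the replicate block without replicate 2) and the FADS2 interaction (1.08 as reported, -0.0043 to 1.64 when a library was left out, the former without NHSUD replicate 2), both at low read counts. The cause was not tested. Over all genes, calls without the block, with it and by DESeq2 were 0, 122 and 37 between media averaged over heat (6 without a filter). They were 19, 96 and 84 for heat in basal medium, 15, 84 and 61 for heat in lactogenic medium, 12, 34 and 33 after 2 h, 2, 220 and 39 after 6 h, and 8, 59 and 40 for 2 h against heated cells. With the compared groups alone these counts were 0, 9, 11, 0, 0 and 4 in the same order. The number of libraries limits precision for all members, and reads limit it for FADS2.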
